A study of Homo sapiens with 8 samples.

Results

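Septin transcripts were measured in A549-S3KO cells, a line derived from A549 human lung adenocarcinoma cells in which endogenous SMAD3 had been disrupted. The members were the 9 gene records named SEPT2, SEPT5, SEPT5-GP1BB, SEPT6, SEPT7, SEPT8, SEPT9, SEPT10 and SEPT11, of 30017 gene symbols in all, and were chosen by these older symbols. SEPT5 had drawn attention through its difference between the responses of the cell lines to TGF-β, so its values in that contrast, and those of the readthrough record that overlaps it, are given as a description and not tested. The cells carried lentiviral Smad3(RA/KP), in which an arginine and an alanine of the β4 region of the DNA-binding MH1 domain are replaced by lysine and proline, or lentiviral wild-type Smad3. Poly(A) RNA was sequenced in 8 libraries, 2 for each of 4 groups: Smad3(RA/KP) cells treated with TGF-β (1 ng/ml, 8 h), Smad3(RA/KP) cells without TGF-β, wild-type Smad3 cells with TGF-β, and wild-type Smad3 cells without TGF-β. All 8 were cultures on collagen-coated plates that lacked endogenous SMAD3. Infected cells had been cloned by limiting dilution, and a wild-type clone of low Smad3 expression had been chosen. The clones sequenced were not named, so a difference between clones and an effect of the mutation cannot be told apart.

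Septins are GTP-binding proteins that polymerize into filaments and rings at the cytokinetic furrow, the cell cortex, stress fibers and the base of cilia. They assemble as palindromic oligomers of subunits from the SEPT2, SEPT6 and SEPT7 groups, with the SEPT9 group added in the longer form. Members of a group can take each other's place in the oligomer, whereas SEPT7 is the sole member of its group in these records. SEPT5, of the SEPT2 group, is best known from neurons, where it binds syntaxin 1 on synaptic vesicles, and from platelets, where it lies at secretory granules. SEPT5 ends a short distance upstream of GP1BB, which encodes the β subunit of platelet glycoprotein Ib, and transcripts that run through both genes are annotated as SEPT5-GP1BB.

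The records of SEPT5 and SEPT5-GP1BB lie on the forward strand of chromosome 22 (GRCh38). The SEPT5 record spans chr22:19714464-19723322 and the SEPT5-GP1BB record chr22:19717220-19724774, which also covers the whole GP1BB record (chr22:19723543-19724774). In the GENCODE v44 annotation, which was read for the structure of the locus and need not be the annotation behind the records, the SEPT5 transcript SEPTIN5-209 has 12 exons and 2031 exonic bases. Of these bases 1891, or 93.1%, are also exonic in the readthrough transcripts, and 10 of its 12 exons are wholly shared. A second SEPT5 transcript, SEPTIN5-208, starts inside the readthrough record, and all of its 2241 bases are shared. Bases that are exonic in only one of the records are therefore confined to the first exons of SEPT5, the first exon of SEPT5-GP1BB and the sequence beyond the end of SEPT5. The annotated readthrough transcripts, of 4113 and 3173 bases, share 54.8% and 62.8% of their bases with SEPT5.

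**Figure D1:**
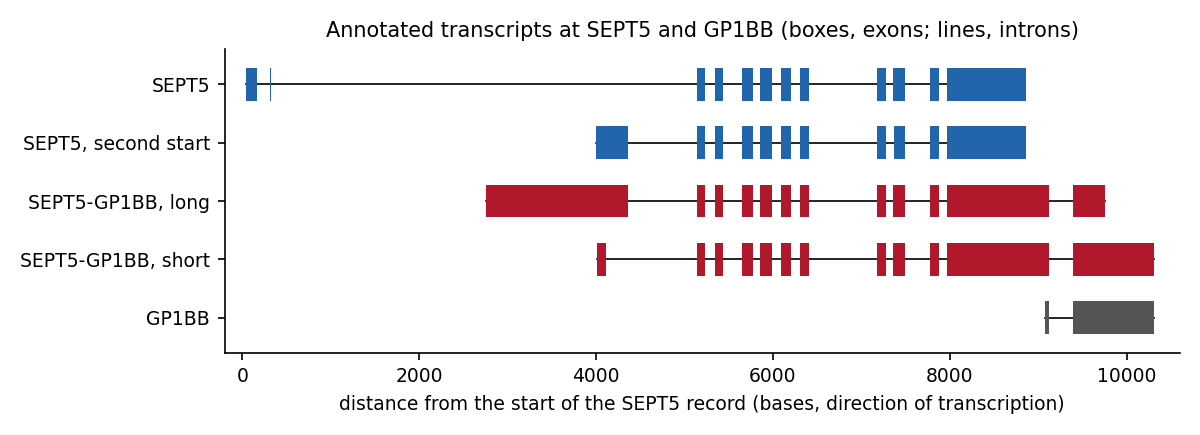
Exons (boxes) and introns (lines) of annotated transcripts at the locus, against distance in bases from the start of the SEPT5 record, for SEPTIN5-209 (SEPT5), SEPTIN5-208 (SEPT5, second start), the 4113-base and 3173-base readthrough transcripts (SEPT5-GP1BB, long and short) and GP1BB. The exons of SEPT5 after the first 2 recur in both readthrough transcripts, and 93.1% of the bases of SEPTIN5-209 are shared.

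The sequence upstream of an annotated start is shown for the readthrough record (the first of its starts), because its start is one of the few features that set it apart from SEPT5, and for SEPT10, the member with the largest fitted response in wild-type Smad3 cells. Each is the 250 bases before a start, 5′ to 3′ in the direction of transcription, from RefSeq annotation of GRCh38.p14, and capitals mark matches to GGGCGG, the core of the GC box bound by Sp1-type factors, on either strand.
SEPT5-GP1BB, chr22:19716970-19717219, forward strand: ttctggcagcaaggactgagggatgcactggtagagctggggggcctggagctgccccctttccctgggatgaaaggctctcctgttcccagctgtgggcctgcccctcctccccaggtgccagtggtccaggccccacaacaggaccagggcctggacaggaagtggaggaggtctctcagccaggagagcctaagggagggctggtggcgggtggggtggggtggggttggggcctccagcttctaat
SEPT10, chr2:109613967-109614216, reverse strand: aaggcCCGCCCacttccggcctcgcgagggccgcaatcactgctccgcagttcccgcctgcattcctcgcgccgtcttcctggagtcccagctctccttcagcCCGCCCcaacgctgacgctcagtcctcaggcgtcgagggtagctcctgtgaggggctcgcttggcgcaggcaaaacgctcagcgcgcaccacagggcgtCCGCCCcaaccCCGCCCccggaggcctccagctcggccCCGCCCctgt
The SEPT5-GP1BB sequence lies inside the SEPT5 record, is 65.6% G and C and holds no GGGCGG, and the SEPT10 sequence is 71.2% G and C and holds 5 matches. The SEPT10 record of these data extends to chr2:109614206, so most of the printed SEPT10 sequence lies inside that record. The sequence upstream of a second annotated SEPT5-GP1BB start (chr22:19718219-19718468), not printed, is 79.6% G and C and holds 3 matches. None of them holds CAGAC, the core of the Smad-binding element, on either strand. Of the 9 members, 8 (all but SEPT5) matched the table, with 23 starts. CAGAC stood upstream of 10 of these 23 starts (43.5%), against 38% of all 35116 annotated starts, and GGGCGG upstream of 15 (65.2%), against 42.6%. Some members have several starts, SEPT9 the most, and some of these upstream stretches overlap. The percentages are therefore shares of starts and not of genes, and the same match can count more than once. The motifs are matches of letters and say nothing of binding.

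The libraries held 1.15 to 1.81 Gb of mapped bases, and the 100 most abundant genes took 36.6 to 39.0% of the TPM (transcript abundance scaled for transcript length and for the total of the library). SMAD3 was at 137 to 187 TPM and did not separate the lines. Its record does not tell lentiviral transcripts from those of the disrupted endogenous gene. KRT8 and KRT18, keratins of simple epithelia, were at 4235 to 6862 and 2533 to 5846 TPM, and EPCAM at 1.40 to 3.95 TPM. PTPRC and CD3E (leukocytes), PECAM1 and VWF (endothelium) were listed at 0 in all 8 libraries, while CD14, a monocyte marker, was at 4.10 to 13.5 TPM. Of the platelet markers, GP9 and PPBP were listed at 0 in all 8, PF4 reached at most 0.510 TPM, GP1BA 1.96 TPM and ITGA2B 3.20 TPM. SMAD7, a direct target of TGF-β, was higher with TGF-β in both lines, by 1.08 on the log2 scale in Smad3(RA/KP) cells (limma adjusted p = 0.0104) and by 1.03 in wild-type cells (adjusted p = 0.0116). Its call was lost without either treated library of the line in Smad3(RA/KP) cells (0.0613 and 0.0892) and without any wild-type library in wild-type cells (0.145 to 0.177). One pair of libraries stood apart. The difference between replicate 2 and replicate 1 followed transcript GC content with a Spearman correlation of -0.586 across 12418 genes in untreated Smad3(RA/KP) cells, against 0.101 to 0.224 in the other groups, and its SD across genes was 0.620 against 0.457 to 0.484. The septins' responses in Smad3(RA/KP) cells, which rest on that pair, are also given without each of its libraries.

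SEPT9 and SEPT2 were the most abundant septins of these cells. SEPT9, which binds microtubules and bundles actin, averaged 203 ± 23.9 TPM (SD, n = 8 libraries), and SEPT2, a core filament subunit, 140 ± 19.0 TPM. SEPT7, the subunit without a substitute, followed at 33.1 ± 8.97 TPM, then SEPT8 at 24.5 ± 2.82, SEPT10 at 14.01 ± 3.58, SEPT5 at 10.3 ± 7.15, SEPT11 at 9.99 ± 2.32, SEPT6 at 8.10 ± 2.38 and SEPT5-GP1BB at 4.06 ± 2.14 TPM. Neighbours in this order overlapped in their range over libraries, except that SEPT2 stood clear of SEPT7 and SEPT8 clear of SEPT10. SEPT9 exceeded SEPT2 in 7 of 8 libraries, the exception being replicate 2 of untreated Smad3(RA/KP) cells. The relative spread was widest for SEPT5, the 1 member listed at 0 in any library.

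Grouped by their place in the oligomer, the records summed to 426 to 473 TPM per library, a narrow range. The SEPT9 group, here SEPT9 alone, made up 34.3 to 52.3% of the sum, the SEPT2 group (SEPT2, SEPT5 and SEPT5-GP1BB) 30.9 to 39.8%, the SEPT6 group (SEPT6, SEPT8, SEPT10 and SEPT11) 10.7 to 14.9%, and SEPT7 5.55 to 11.02%. SEPT7 was thus the least abundant position in every library at the RNA level. The low end for SEPT9 and the high end for SEPT7 came from the same library, replicate 2 of untreated Smad3(RA/KP) cells, without which SEPT9 made up at least 39.9% and SEPT7 at most 9.05%.

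SEPT5 was present in 6 libraries and listed at 0 in the other 2. It was at 12.1 and 16.9 TPM in Smad3(RA/KP) cells after TGF-β, compared with 0 and 0 TPM in Smad3(RA/KP) cells without TGF-β. In wild-type cells SEPT5 was at 8.00 and 18.8 TPM after TGF-β, compared with 12.1 and 14.6 TPM in its absence. Both libraries at 0 were those of untreated Smad3(RA/KP) cells, and the other 3 groups overlapped each other. In bulk RNA a change in each cell and a change in the share of cells with the transcript cannot be told apart. Of all 30017 symbols, SEPT5 was the 1 symbol listed at 0 in both libraries of a group and at 5 TPM or more in each of the other 6 libraries.

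The readthrough record ran the other way. SEPT5-GP1BB was at 2.60 and 4.61 TPM in Smad3(RA/KP) cells after TGF-β, compared with 7.36 and 6.92 TPM in Smad3(RA/KP) cells without. In wild-type cells it was at 3.91 and 2.81 TPM after TGF-β, compared with 1.30 and 2.93 TPM in its absence. Its highest 2 values were thus those of the 2 libraries in which SEPT5 was at 0, and untreated Smad3(RA/KP) cells did not overlap with any other group. The readthrough record held 17.7 and 21.4% of the summed TPM of the records in Smad3(RA/KP) cells after TGF-β, compared with 100 and 100% in its absence. In wild-type cells it held 32.8 and 13.04% after TGF-β, compared with 9.67 and 16.7% in its absence. GP1BB itself was listed at 0 in 7 libraries and at 0.00149 TPM in replicate 2 of untreated Smad3(RA/KP) cells. Of the 13141 symbols tested 1926 (14.7%) overlap another symbol on the same strand.

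**Figure D2:**
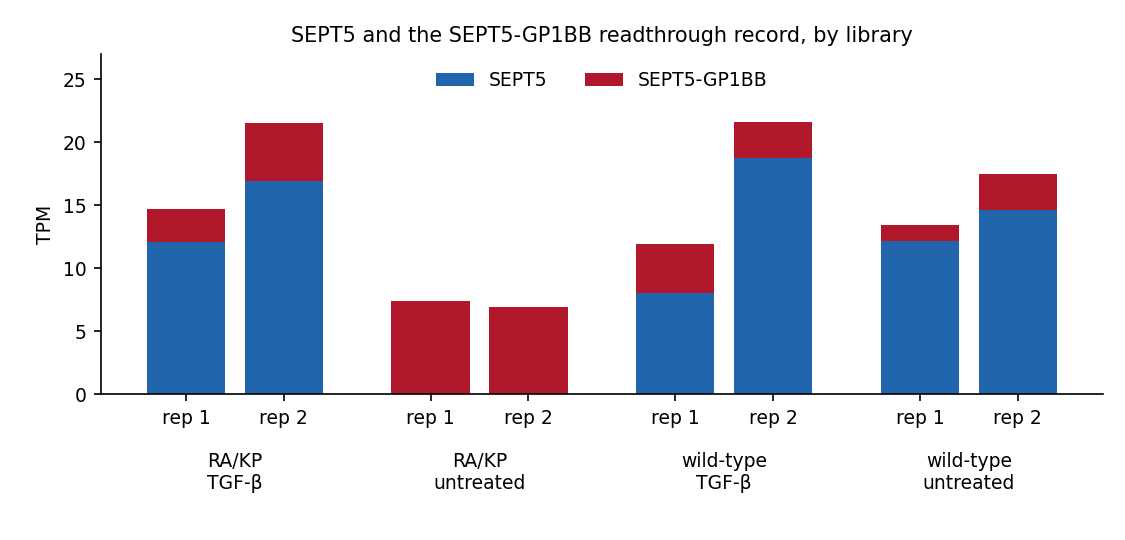
TPM of SEPT5 (blue) and SEPT5-GP1BB (red), stacked, in each of the 8 libraries, with bars that start at 0. The untreated Smad3(RA/KP) libraries hold 7.36 and 6.92 TPM, all of it in the readthrough record, and the other 6 libraries hold both records.

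The sum of both records varied less than SEPT5 alone. It was 14.7 and 21.5 TPM in Smad3(RA/KP) cells after TGF-β, compared with 7.36 and 6.92 TPM in its absence, and 11.9 and 21.6 TPM in wild-type cells after TGF-β, compared with 13.4 and 17.5 TPM in its absence. Untreated Smad3(RA/KP) cells were below the other groups, with no overlap. On the log2(TPM + 1) scale the sum was 1.21 higher with TGF-β in Smad3(RA/KP) cells (SE 0.24), differed by -1.01 in untreated Smad3(RA/KP) relative to untreated wild-type cells (SE 0.24), and its response to TGF-β differed by 1.14 between the lines (SE 0.34). None of these was tested, since they include the values that drew attention to SEPT5. Without replicate 1 of untreated Smad3(RA/KP) cells these values of the sum were 1.53, -1.33 and 1.46, and without replicate 2 they were 0.89, -0.69 and 0.82. With the GC trend of each library removed they were 0.83, -0.94 and 0.72.

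TPM counts transcripts, and a readthrough transcript is longer than a SEPT5 transcript, so a read moved from one record to the other changes the sum. When the FPKM of each record was multiplied by the length of an annotated transcript, an alternative chosen after the values had been seen, the gap narrowed. With 2031 bases for SEPT5 and 4113 for SEPT5-GP1BB, the locus held 19.9 and 30.6 bases per mapped megabase in Smad3(RA/KP) cells after TGF-β, compared with 18.4 and 16.1 in its absence. The wild-type libraries held 19.1 and 27.4 after TGF-β, compared with 17.9 and 24.3 in its absence, so untreated Smad3(RA/KP) cells overlapped with untreated wild-type cells. The difference of the responses was then 0.37 (SE 0.29). With the 3173-base transcript the Smad3(RA/KP) libraries held 18.6 and 28.2 after TGF-β, compared with 14.2 and 12.5 in its absence, and the wild-type libraries held 17.0 and 26.0 after TGF-β, compared with 17.2 and 22.6 in its absence. Untreated Smad3(RA/KP) cells then lay below all others, and the difference was 0.65 (SE 0.30). The transcripts the reads came from were not resolved in these tables, so the assignment of reads between the records and a change in SEPT5 transcription cannot be told apart.

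The coverage column, the mean number of reads over each base of a record, put untreated Smad3(RA/KP) cells at 0 for SEPT5 and highest for SEPT5-GP1BB, as TPM did. It is not scaled for depth, which differed between libraries, so other differences in it are not read. SEPT5 was covered 5.29 and 9.78 times in Smad3(RA/KP) cells after TGF-β, compared with 0 and 0 times in its absence, and 4.22 and 12.0 times in wild-type cells after TGF-β, compared with 5.33 and 7.73 times in its absence. SEPT5-GP1BB was covered 1.77 and 4.17 times in Smad3(RA/KP) cells after TGF-β, compared with 5.67 and 5.55 times in its absence, and 2.95 and 2.81 times in wild-type cells after TGF-β, compared with 0.892 and 2.43 times in its absence. These are low coverages. Coverage was not comparable between records, because its ratio to FPKM differed among them, so no sum of it is given.

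The 5 symbols whose level followed SEPT5 most closely over the 8 libraries, by Pearson correlation of log2(TPM + 1), were CLPB (r = 0.973), WDR91 (0.932), TIGD1 (0.924), NUDCD3 (0.923) and VARS (0.912). These are descriptions over libraries that share their depth and their groups. CLPB, a mitochondrial chaperone, was at 14.03 and 14.4 TPM in Smad3(RA/KP) cells after TGF-β, compared with 11.5 and 11.4 TPM in its absence, and at 14.5 and 15.6 TPM in wild-type cells after TGF-β, compared with 14.8 and 14.7 TPM in its absence. Its span was far narrower than that of SEPT5. TIGD1 was also listed at 0 in both untreated Smad3(RA/KP) libraries, but reached no more than 3.11 TPM elsewhere.

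All 9 members had a mean of at least 1 TPM and entered the model. In the response to TGF-β in wild-type cells, where 4.68% of the 13141 symbols (2.94% higher and 1.74% lower with TGF-β) passed limma's test at an adjusted p of 0.05, 0 of 9 members passed. One member had an unadjusted p under 0.05. The median log2 fold change was 0.04 over the members and -0.06 over all symbols. The 9 include SEPT5 and SEPT5-GP1BB, although wild-type cells also enter the contrast that drew attention to SEPT5. The fits of SEPT5 (-0.10, SE 0.29), SEPT5-GP1BB (0.53, SE 0.33) and their sum (0.06, SE 0.24) are therefore not read as a test. These values rested on single libraries. Without replicate 1 of treated wild-type cells they were 0.35 for SEPT5, 0.12 for SEPT5-GP1BB and 0.33 for the sum, and without replicate 2 they were -0.55, 0.93 and -0.21. Without replicate 1 of untreated wild-type cells they were 0.04, 0.17 and 0.09, and without replicate 2 they were -0.24, 0.88 and 0.03. SEPT9 was at 192 and 183 TPM in wild-type cells after TGF-β, compared with 210 and 204 TPM in its absence, without overlap (-0.15, 95% interval -0.52 to 0.23, limma adjusted p = 0.773). SEPT2 was at 137 and 159 TPM after TGF-β, compared with 129 and 133 TPM in its absence, also without overlap (0.17, 95% interval -0.22 to 0.57, adjusted p = 0.730). SEPT7 overlapped, at 32.0 and 30.5 TPM after TGF-β, compared with 39.8 and 28.5 TPM in its absence (-0.10, 95% interval -0.86 to 0.65).

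SEPT10, a SEPT6-group subunit, had the lowest adjusted p. It was at 17.4 and 20.0 TPM in wild-type cells after TGF-β, compared with 10.3 and 10.0 TPM in its absence, and the groups did not overlap. The log2 fold change was 0.82 (SE 0.20, 95% interval 0.37 to 1.27, limma adjusted p = 0.0558), just outside the threshold. In Smad3(RA/KP) cells SEPT10 was at 13.2 and 15.4 TPM after TGF-β, compared with 10.99 and 14.9 TPM in its absence, with overlap, and the log2 fold change was 0.14 (SE 0.20, limma adjusted p = 0.703). Without replicate 1 of untreated Smad3(RA/KP) cells that value was -0.0028, without replicate 2 it was 0.29, and with the GC trend removed the SEPT10 response was 0.46 for Smad3(RA/KP) (limma adjusted p = 0.125) and 0.87 for wild type. The difference of the responses as first fitted, -0.68 (SE 0.28), belongs to the contrast that drew attention to SEPT5 and was not tested. SEPT10 passed in wild-type cells under 5 of 11 other settings (limma adjusted p 0.0145 to 0.122). More symbols also passed in some of them. With the GC trend removed, which gave the lowest value, 1229 of 12418 symbols passed, against 615 of 13141 in the main fit. With a mean of at least 5 TPM 580 of 9460 passed, with FPKM 701 of 12065, with median-ratio scaling 659 of 13128 and with quantile normalization 660 of 13141. In fits that left out a single library the log2 fold change of SEPT10 was 0.67 to 0.97, and SEPT10 did not pass in most of them.

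**Figure D3:**
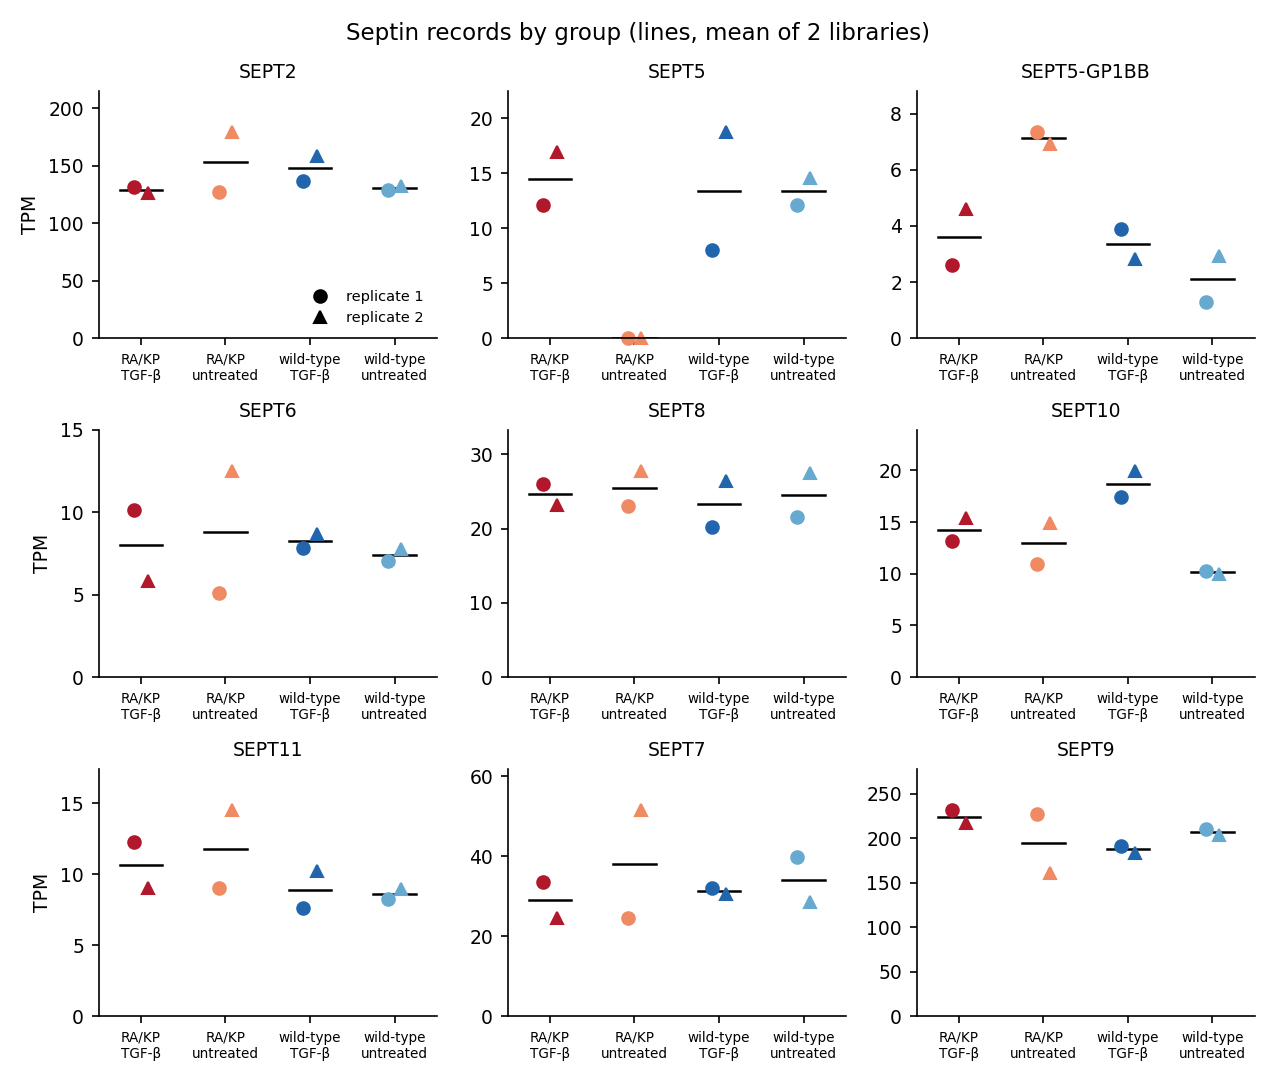
TPM of each septin record (vertical axes, each starting at 0) in the 4 groups, with circles for replicate 1, triangles for replicate 2 and lines for their mean. SEPT5 is at 0 in untreated Smad3(RA/KP) cells, where SEPT5-GP1BB is highest, and SEPT10 is at 17.4 and 20.0 TPM in wild-type cells after TGF-β, compared with 10.3 and 10.0 TPM in its absence.

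In the response to TGF-β in Smad3(RA/KP) cells, where 4.98% of symbols passed (3.49% higher and 1.5% lower), 0 of the 7 other members passed, 0 had an unadjusted p under 0.05, and the lowest limma adjusted p was 0.448, for SEPT9. Their median log2 fold change was -0.05, against -0.10 over all symbols. SEPT9 was at 232 and 217 TPM in Smad3(RA/KP) cells after TGF-β, compared with 228 and 161 TPM in its absence (log2 fold change 0.23, 95% interval -0.15 to 0.61). SEPT2 was at 132 and 126 TPM after TGF-β, compared with 127 and 180 TPM in its absence (-0.23, 95% interval -0.63 to 0.16). SEPT7 was at 33.5 and 24.5 TPM after TGF-β, compared with 24.6 and 51.7 TPM in its absence (-0.31, 95% interval -1.06 to 0.44). The sizes of these values, and the signs of SEPT6, SEPT7 and SEPT11, changed with the untreated library left out. The log2 fold change of SEPT7 was -0.99 without replicate 1 of untreated Smad3(RA/KP) cells. It had the other sign without replicate 2 (0.37) and with the GC trend removed (0.13). Either fit without a replicate leaves a single library in that group. Without replicate 1 SEPT9 was at 0.44, SEPT2 at -0.45, SEPT6 at -0.71, SEPT11 at -0.41 and SEPT8 at -0.08 on the log2 scale. Without replicate 2 SEPT9 was at 0.01, SEPT2 at -0.02, SEPT6 at 0.60, SEPT11 at 0.19 and SEPT8 at -0.0054. With the GC trend removed SEPT9 was at 0.0073, SEPT2 at -0.0094, SEPT6 at 0.06, SEPT11 at 0.18 and SEPT8 at -0.0057.

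In that group replicate 2 was higher than replicate 1 for the 6 septins of lowest GC content and lower for SEPT9 and SEPT5-GP1BB. Transcript GC ran from 35.2% for SEPT7, 40.8% for SEPT10, 41.5% for SEPT11, 44.3% for SEPT2, 48.0% for SEPT6 and 50.5% for SEPT8 to 60.1% for SEPT9, 66.9% for SEPT5-GP1BB and 67.5% for SEPT5, against a median of 48.9% over the symbols tested. In untreated Smad3(RA/KP) cells replicate 2 exceeded replicate 1 by 1.04 on the log2 scale for SEPT7, 1.15 for SEPT6, 0.63 for SEPT11 and 0.49 for SEPT2, and by less for SEPT10 (0.41) and SEPT8 (0.26). It was lower for SEPT9, by -0.50, and for SEPT5-GP1BB, by -0.08. SEPT5 and its readthrough record were thus the most GC-rich members, and replicate 2 of this pair was lower than replicate 1 for GC-rich genes, but both replicates listed SEPT5 at 0. The part of GC content in the SEPT5 values was not tested beyond the value with the trend removed.

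**Figure D4:**
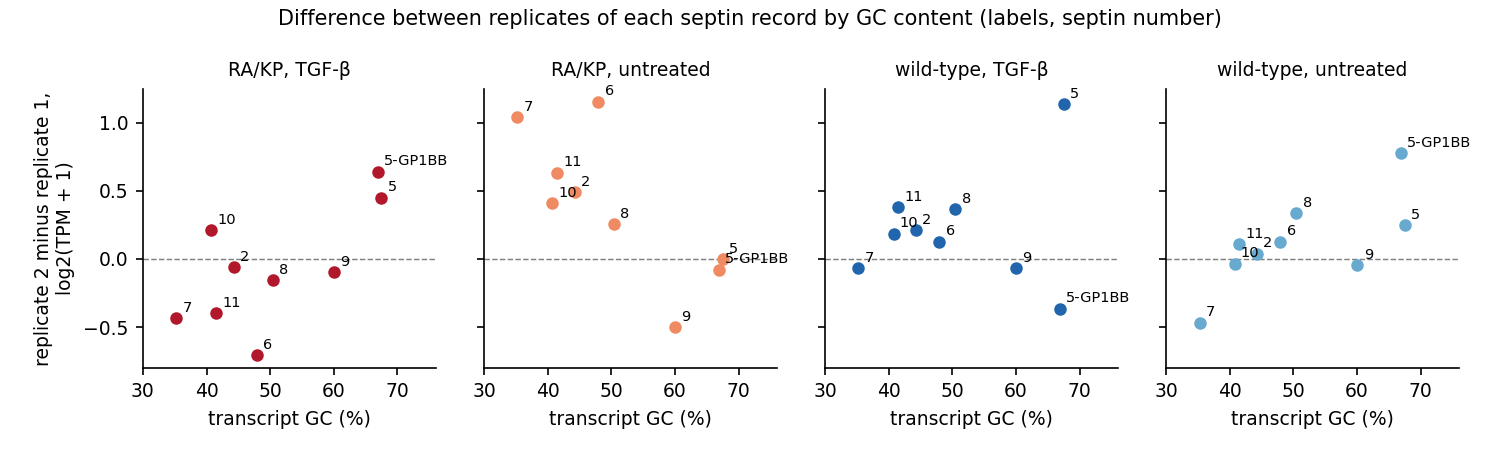
Difference of replicate 2 minus replicate 1 in log2(TPM + 1) (vertical axis) against transcript GC content in percent (horizontal axis) for the 9 septin records, 1 panel a group. In untreated Smad3(RA/KP) cells the difference is 1.04 for SEPT7 at 35.2% GC and -0.50 for SEPT9 at 60.1% GC, and SEPT5 stands at 0 because it is listed at 0 in both libraries.

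No septin that was tested passed between the lines, and in untreated cells SEPT5 and SEPT5-GP1BB were not tested. The shares of symbols given here are over all symbols, with records that were not tested included. In untreated cells, where 0.0152% of symbols passed between Smad3(RA/KP) and wild type, 0 of the 7 members tested passed and 0 had an unadjusted p under 0.05, with an adjusted p of 1 for each. Their log2 fold changes lay between -0.11 (SEPT9) and 0.38 (SEPT11). SEPT11, a SEPT6-group subunit, was at 9.03 and 14.5 TPM in untreated Smad3(RA/KP) cells and at 8.23 and 8.93 TPM in untreated wild-type cells, and the 95% interval of its fold change was -0.22 to 0.99. Without replicate 1 of untreated Smad3(RA/KP) cells the fold change of SEPT11 was 0.68 and that of SEPT9 -0.33, and without replicate 2 they were 0.08 and 0.10. SEPT6, SEPT7 and SEPT2 also changed sign, from 0.77, 0.76 and 0.42 without replicate 1 to -0.54, -0.60 and -0.0054 without replicate 2. SEPT8 (0.09 and 0.01) and SEPT10 (0.46 and 0.17) kept their sign. After TGF-β SEPT11 was at 12.3 and 9.05 TPM in Smad3(RA/KP) cells and at 7.61 and 10.2 TPM in wild-type cells. In cells with TGF-β, where 0.00761% of symbols passed, 0 of 9 members passed and 0 had an unadjusted p under 0.05 (lowest limma adjusted p 0.716, SEPT10). There SEPT5 differed by 0.20 (95% interval -0.46 to 0.86) and the sum with its readthrough record by 0.14 (95% interval -0.41 to 0.68). Both had the other sign without replicate 1 of treated wild-type cells (-0.25 and -0.13) and with the GC trend removed (-0.16 and -0.22). Treated cells of both lines also enter the contrast that drew attention to SEPT5, so these values are not read as a test.

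**Figure D5:**
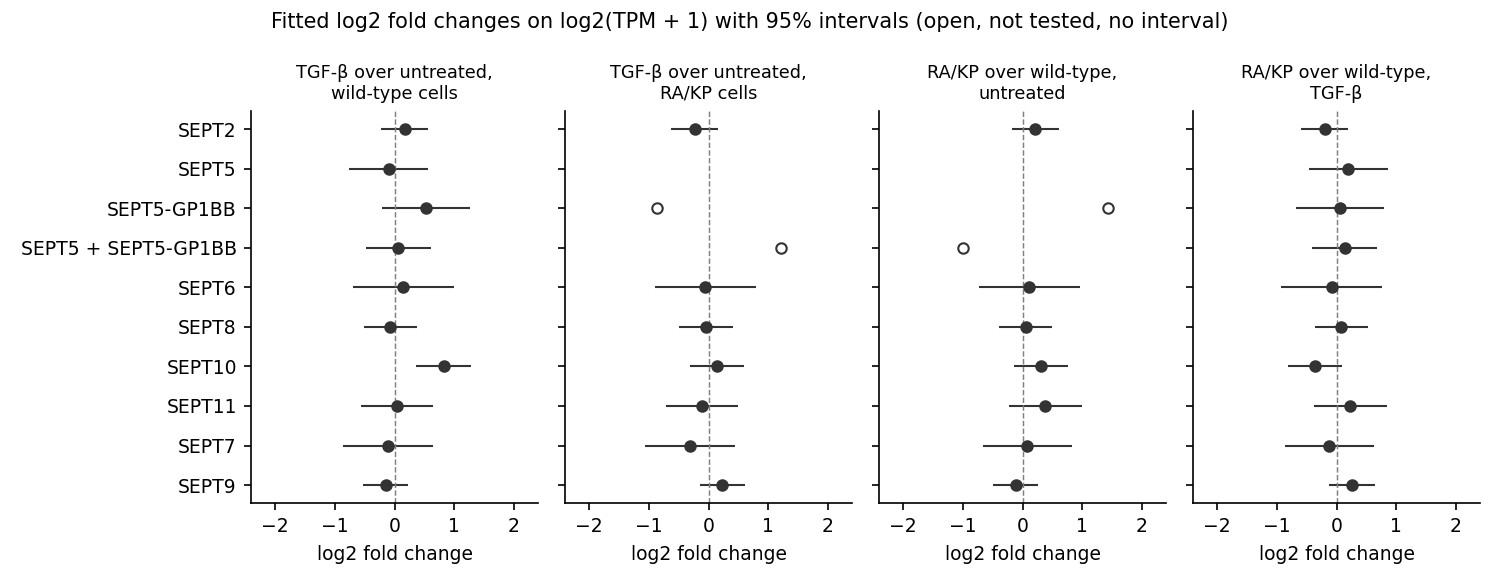
Fitted log2 fold changes on the log2(TPM + 1) scale (horizontal axes) for the septin records and the SEPT5 sum in 4 comparisons, with filled points and 95% intervals where the value was tested and open points where it was not. SEPT10 stands at 0.82 in wild-type cells, and no fold is drawn for SEPT5 in the panels that set it against untreated Smad3(RA/KP) cells, where it is listed at 0.

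SEPT8, another SEPT6-group subunit, stayed between 20.3 and 27.8 TPM in all 8 libraries. It was at 26.0 and 23.2 TPM in Smad3(RA/KP) cells after TGF-β, compared with 23.1 and 27.8 TPM in its absence, and at 20.3 and 26.4 TPM in wild-type cells after TGF-β, compared with 21.6 and 27.5 TPM in its absence. SEPT6 was at 10.1 and 5.83 TPM in Smad3(RA/KP) cells after TGF-β, compared with 5.07 and 12.5 TPM in its absence, so that its replicates differed more than its groups. In wild-type cells SEPT6 was at 7.85 and 8.66 TPM after TGF-β, compared with 7.01 and 7.75 TPM in its absence. SEPT7 lies close in sequence to pseudogene copies, among which reads can be split, so its level is uncertain to that extent.

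In the contrast that drew attention to SEPT5, the difference of the responses, 0.0228% of symbols passed, and the members are given as values only. The log2 difference (Smad3(RA/KP) minus wild-type) was -1.38 for SEPT5-GP1BB (SE 0.46), -0.40 for SEPT2 (SE 0.25), 0.37 for SEPT9 (SE 0.24), -0.20 for SEPT6 (SE 0.53), -0.20 for SEPT7 (SE 0.47), -0.15 for SEPT11 (SE 0.38) and 0.03 for SEPT8 (SE 0.28). The median over all symbols was -0.02.

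Other septins were scarce. SEPT1 was at 0.909 to 2.47 TPM, SEPT4 at 0 to 2.51 TPM and SEPT3 at 0.660 to 1.37 TPM, while SEPT12 and SEPT14, known from testis, were listed at 0 in all 8 libraries. Of these 5 genes 2 reached the mean of 1 TPM, and 0 passed in any of the 4 comparisons.

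Genes that work with septins were read from lists. The effectors of CDC42 of the Borg family, CDC42EP1 to CDC42EP5, bind septins and arrange their filaments. With CDC42 itself they form a list of 6 genes, of which 5 were tested. Over all symbols 4.98% passed in the response of Smad3(RA/KP) cells and 4.68% in that of wild-type cells. Calls of 1 or 2 genes in lists this short are therefore not read as results about the lists. CDC42EP2 alone of the 5 passed, and rose with TGF-β in both lines. It was at 32.5 and 49.9 TPM in Smad3(RA/KP) cells after TGF-β, compared with 18.9 and 18.4 TPM in its absence (log2 fold change 1.07, SE 0.21, limma adjusted p = 0.0219). In wild-type cells it was at 31.7 and 46.4 TPM after TGF-β, compared with 14.8 and 23.4 TPM in its absence (1.00, SE 0.21, adjusted p = 0.0306). The groups did not overlap in either line. These calls sat near the threshold, since CDC42EP2 passed in 12 of 19 alternatives in Smad3(RA/KP) cells (adjusted p 0.00807 to 0.195) and in 11 of 19 in wild-type cells (0.00472 to 0.296). In Smad3(RA/KP) cells the call was lost without either treated library of that line (0.0892 and 0.195), its untreated replicate 2 (0.0726) or either treated wild-type library (0.0659 and 0.0672). In wild-type cells it was lost without treated Smad3(RA/KP) replicate 2 (0.0503) or any wild-type library (0.135 to 0.296).

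Of 15 tested genes of the cytokinetic ring and midbody, where septins anchor the contractile ring, 1 rose and 1 fell with TGF-β in Smad3(RA/KP) cells, and 0 passed in wild-type cells. Over all symbols 3.49% rose and 1.5% fell in Smad3(RA/KP) cells, and 4.68% passed in wild-type cells. MYH9, the heavy chain of nonmuscle myosin IIA, was at 325 and 350 TPM in Smad3(RA/KP) cells after TGF-β, compared with 158 and 222 TPM in its absence (log2 fold change 0.85, SE 0.17, limma adjusted p = 0.0242). In wild-type cells MYH9 was at 229 and 352 TPM after TGF-β, compared with 157 and 230 TPM in its absence (0.58, SE 0.17, adjusted p = 0.102). ECT2, the exchange factor that activates RhoA at the furrow, was at 19.2 and 12.6 TPM in Smad3(RA/KP) cells after TGF-β, compared with 28.3 and 37.1 TPM in its absence (-1.01, SE 0.23, adjusted p = 0.0433). In wild-type cells ECT2 was at 20.5 and 19.0 TPM after TGF-β, compared with 29.3 and 27.6 TPM in its absence (-0.51, SE 0.23, adjusted p = 0.330). The difference between the lines was not tested for these genes. Without replicate 2 of untreated Smad3(RA/KP) cells MYH9 (adjusted p = 0.0790) and ECT2 (0.195) no longer passed. MYH9 was also lost without either treated library of either line (0.0506 to 0.152) and ECT2 without any of the other libraries (0.0541 to 0.310) except replicate 1 of untreated Smad3(RA/KP) cells.

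Of 15 genes of the SNARE and exocyst machinery, through which SEPT5 and other septins have been tied to secretion, 1 rose and 1 fell in Smad3(RA/KP) cells and 0 passed in wild-type cells. STX1A encodes syntaxin 1A, the SNARE that SEPT5 binds in neurons. It was at 107 and 118 TPM in Smad3(RA/KP) cells after TGF-β, compared with 51.8 and 61.9 TPM in its absence (log2 fold change 0.98, SE 0.16, limma adjusted p = 0.0118), and at 75.2 and 96.2 TPM in wild-type cells after TGF-β, compared with 62.7 and 60.3 TPM in its absence (0.46, SE 0.16, adjusted p = 0.183). The groups did not overlap in either line. The STX1A call was lost in 2 of 19 alternatives, those without either treated Smad3(RA/KP) library (adjusted p = 0.0892 and 0.0945). EXOC6, an exocyst subunit, was at 5.91 and 4.40 TPM in Smad3(RA/KP) cells after TGF-β, compared with 9.95 and 15.7 TPM in its absence (-1.14, SE 0.27, adjusted p = 0.0445), and passed in 8 of 19 alternatives. In wild-type cells EXOC6 was at 7.55 and 6.69 TPM after TGF-β, compared with 9.70 and 10.8 TPM in its absence (-0.47, SE 0.27, limma adjusted p = 0.449). The EXOC6 call in Smad3(RA/KP) cells was lost without replicate 2 of untreated Smad3(RA/KP) cells (0.199) and without any other library but replicate 1 of that group (0.0660 to 0.305). Between the lines 0 genes of these lists passed, with or without TGF-β, where 0.00761% and 0.0152% of all symbols passed.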

How the data were processed

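Poly(A) RNA was sequenced on an Ion Torrent platform. Per the submitters' processing notes and the study's methods, reads were aligned to GRCh38 with HISAT2 2.1.0 and quantified with StringTie 2.0.4 without assembly of new transcripts; the sources used here give no annotation for the records. The authors deposited 1 table per library with the coverage signal, FPKM and TPM of each of 33122 gene records. Records with the same symbol were summed, and 13141 symbols with a mean of at least 1 TPM were tested with limma 3.58.1 (R 4.3.3, mean-variance trend) on log2(TPM + 1), which understates changes of low genes. The model held 4 groups and, since the study formed ratios within each of 2 experiments, the experiment (replicate number) as a block. Deviations of libraries with the same number from their group means correlated at 0.0484 to 0.332. The Benjamini-Hochberg adjustment ran over all tested symbols at 0.05. The tables hold no read counts, and TPM keeps no depth, so only mapped bases were derived, from coverage and FPKM. With 2 libraries a group the errors are wide, and p-values measure the spread between these libraries.

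The members and lists were chosen with earlier results of these data known. The genes named from a list were those that passed in any of 4 comparisons, otherwise the 2 with the highest mean. Alternatives were other pseudocounts, filters, scalings, FPKM, no block, no mean-variance trend, GC correction, the SEPT5 records summed and leaving out each library. Scripts were tested on simulated data. Upstream sequences came from RefSeq (GRCh38.p14) and exon structure and GC from GENCODE v44.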

Additional observations from a re-analysis of the deposited data

Results flagged for a closer look

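The SEPT9 ratio was above 0 in both pairs of Smad3(RA/KP) libraries and below 0 in both pairs of wild-type libraries, but in Smad3(RA/KP) cells this rested on 1 library. The log2 ratio of SEPT9 with to without TGF-β was 0.03 and 0.43 in Smad3(RA/KP) cells, for replicates 1 and 2, and -0.13 and -0.16 in wild-type cells. The difference between the lines was not tested, because it belongs to the contrast that drew attention to SEPT5. The ratio of 0.43 rests on replicate 2 of untreated Smad3(RA/KP) cells, which was lower than replicate 1 for GC-rich genes, and SEPT9 is 60.1% G and C. The fitted response of SEPT9 in Smad3(RA/KP) cells, 0.23, was 0.01 without that library and 0.0073 with the GC trend removed.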

How the results depend on the processing

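Of 76 counts of septins that passed, over 4 comparisons and 19 alternatives, 68 stayed at 0. In the response of wild-type cells the count was 1 in place of 0, SEPT10 each time, with a mean of at least 5 TPM, with FPKM, with median-ratio scaling, with quantile normalization and with the GC trend removed, and 0 to 1 when single libraries were left out. In the response of Smad3(RA/KP) cells it was 0 to 1 when single libraries were left out, and 0 in both comparisons between the lines throughout. The difference of the responses of the SEPT5 sum, 1.14, was 0.72 with the GC trend removed, 0.37 and 0.65 when weighted by transcript length (4113 and 3173 bases, chosen after seeing the data), and 0.82 to 1.46 when single libraries were left out. Without the replicate block it was 1.14 (SE 0.44), and the counts of septins stayed at 0 in all 4 comparisons, but CDC42EP2 (adjusted p = 0.129 in Smad3(RA/KP) and 0.160 in wild-type cells), MYH9 (0.189), ECT2 (0.0792) and EXOC6 (0.0740) no longer passed. They were also lost with no filter on low values (0.0862 to 0.149). Without the mean-variance trend CDC42EP2 in wild-type cells (limma adjusted p = 0.0598) was lost. So were MYH9 (0.0743), ECT2 (0.0786) and EXOC6 (0.0593) in Smad3(RA/KP) cells. EXOC6 was lost with a pseudocount of 5 TPM as well (0.0505). Of 712 values of single septins under alternatives, 42 had the other sign, in each case of a value that did not pass. The low coverage of SEPT5 and SEPT5-GP1BB limits the precision of both records. Neither was tested or counted in the comparisons that use untreated Smad3(RA/KP) cells. A septin that passed only in a fit that left a single library in a group is not read as a result.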
